A study of Homo sapiens with 46 samples.

Results

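The signal recognition particle was followed here through 8 genes, taken by name: the 7SL RNA copies RN7SL1 and RN7SL2 and the protein subunits SRP9, SRP14, SRP19, SRP54, SRP68 and SRP72. All 8 were found among the 61228 rows of the HCT116 table, and the 6 protein genes were found among the 30160 rows of the HEK293 table, so 7SL RNA was not analysed in HEK293. The study removed Ku, the Ku70/Ku80 ring that binds DNA ends, from human cell lines by 3 routes and measured RNA in 46 libraries of 18 groups. HCT116 is a colon carcinoma line and HEK293 a line from embryonic kidney.

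In the first route, HCT116 clones 1, 7 and 9 with the genotype Ku80-AID, in which Ku80 (gene XRCC5) carries an auxin-inducible degron, were given indole-3-acetic acid (IAA, 100 µM) together with doxycycline (0.5 µg/mL), and their controls DMSO. Groups of 2 clones (1 and 9) were taken at 1 day of DMSO or IAA and at 2 days of a CDK4/6 inhibitor with or without IAA. Groups of 3 clones were taken at 2 days of DMSO, at 2, 4 and 6 days of IAA, and at 4 days of the inhibitor with or without IAA. The 2-day DMSO libraries are the control for 2, 4 and 6 days of IAA and for the inhibitor alone at 2 and 4 days. Time and IAA therefore cannot be told apart in the contrasts at 4 and 6 days of IAA. Every contrast of IAA with DMSO also contains doxycycline. Clones 1, 13 and 15 with the genotype Ku80-AID, MAVS-/-, which lack the adaptor of RIG-I-like RNA sensors, had 4 days of DMSO or IAA. In the second route, Ku86Flox/-:CreERT2 cells and Ku86Flox/- cells without Cre, both with 1 floxed and 1 inactive XRCC5 allele, were kept for 4 days in ethanol or in 4-hydroxytamoxifen (4OHT, 50 nM), with 2 libraries per group. In the third, 3 HEK293 clones without their own Ku70 that express Ku70 under doxycycline (1 µg/mL) were compared with the same clones 8 days after its withdrawal. Poly-A selection preceded library making in HCT116, whereas ribosomal RNA was depleted in HEK293.

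As background, the particle binds the signal peptide of a nascent secretory or membrane protein on the ribosome, slows elongation and hands the ribosome to its receptor at the endoplasmic reticulum (ER), from which the chain enters the Sec61 channel. 7SL RNA is made by RNA polymerase III and is the scaffold of the particle. Its ends form the Alu domain, bound by the SRP9/SRP14 dimer, and its middle the S domain, bound by SRP19, SRP54, SRP68 and SRP72. Alu repeats descend from 7SL RNA, and SRP9/SRP14 also bind Alu transcripts, which ties the particle to the Alu RNA named in the study's title.

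RN7SL1 and RN7SL2 are annotated on chromosome 14 (GENCODE v29), each as a single noncoding exon, and their reads can hardly be separated. Of 300 aligned positions 295 were identical (98.3%). A further copy on chromosome 14, RN7SL3, was 97.7% identical to RN7SL1. Of the 269 windows of 31 bases in RN7SL1, 0 were found in no other annotated gene and 196 were shared with RN7SL2. All 269 also lie in AL139099.4, a noncoding entry at the same place. RN7SL2 had 14 windows of 270 that no other gene held. RN7SL1 also lies within the span of RPS29, which runs on the other strand, and no source used here says whether counting used strand. RN7SL2 lies within the span of the lincRNA AL627171.2 on the same strand. The division of reads between the copies therefore depends on the authors' estimation, and both rows are read below as 7SL RNA.

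Totals of estimated counts per library, in M, lay between 9.53 and 45.7 for HCT116 and between 19.6 and 28.5 for HEK293. XRCC5 fell from 256 to 258 CPM (counts scaled to library size) in ethanol to 24.9 to 30.7 CPM in 4OHT with Cre, and XRCC6 (Ku70) from 2269 to 3529 CPM with doxycycline to 339 to 605 CPM without it. In the degron clones the mRNA does not report loss of the protein. MAVS was at 108 to 184 CPM in the MAVS-/- libraries and at 262 to 459 CPM in the other degron libraries. Of 10 colon epithelial markers, 8 had a mean above 1 CPM in each HCT116 line (CDH17 and LGALS4 did not), and of 10 HEK293 markers only 4 did in HEK293 (NEFL, INA, LIN28B and UCHL1), where 6 of the 10 colon markers also exceeded 1 CPM (CDX2, EPCAM, CDH1, KRT8, KRT18 and KRT19) and KRT20 was at 0. In the degron libraries 6 of the 10 HEK293 markers exceeded 1 CPM, so the counts above 1 CPM do not separate the lines. The summed levels did not overlap between HCT116 and HEK293, though library types differ. HEK293 markers summed to 487 to 719 CPM in HEK293, 20.7 to 84.9 CPM in degron and 41.5 to 53.6 CPM in Ku86Flox/- libraries. Colon markers summed to 199 to 454 CPM in HEK293, 2297 to 4497 CPM in degron and 3173 to 6116 CPM in Ku86Flox/- libraries. Of 10 blood, endothelial and stromal markers, 2 exceeded 1 CPM in the degron libraries, 3 in the Ku86Flox/- libraries and 6 in HEK293. Their summed level was 17.5 to 154 CPM in the degron libraries, where 3 of the 10 were tested. CD68 rose by 2.32, 3.77 and 3.02 (log2) at 2, 4 and 6 days of IAA against 2 days of DMSO. Between the IAA times CD68 changed by 1.45 ± 0.42 from 2 to 4 days and by -0.75 ± 0.41 from 4 to 6 days. VWF changed by 0.43 ± 0.67 from 2 to 4 days and by -3.45 ± 0.76 from 4 to 6 days (edgeR adjusted p = 0.00503 for the latter). COL1A1 changed by -0.40 ± 0.20 and -0.26 ± 0.20 over these steps and was not called. The part of these markers in the values below was not tested. CPM values are scaled with TMM factors. The replicates are clones, or numbered libraries that the labels do not call separate cultures, so the p-values measure the spread between those libraries. In bulk RNA, fewer cells with a transcript and less of it per cell cannot be told apart.

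7SL RNA made up a small and very uneven share of these poly-A libraries. RN7SL1 and RN7SL2 together held 0.00179 to 0.118% of the estimated counts. The share differed between libraries of 1 group, from 0.00252 to 0.0263% in the ethanol libraries with Cre and from 0.0146 to 0.118% at 6 days of IAA, and between sets of libraries named in different ways. It was 0.0146 to 0.118% (median 0.0361%) in the 18 degron libraries whose titles give the time in days. It was 0.00398 to 0.014% (median 0.00711%) in the 8 whose titles give it in hours, so these sets did not overlap. The MAVS-/- libraries held 0.00179 to 0.0143% and the Ku86Flox/- libraries 0.00252 to 0.0263%. RN7SL3 was also higher on average in each day-titled group (8.51 to 19.5 CPM) than in each hour-titled one (1.58 to 4.75 CPM). Genes that overlap members on the other strand also differed between the sets. RPS29, across RN7SL1, was at 81.0 to 138 CPM in day-titled libraries and at 243 to 553 CPM in the other HCT116 libraries. ZACN, across SRP68, was at 0 to 1.05 CPM and at 18.6 to 51.1 CPM in these. The part of these overlaps in the member values was not tested. The labels do not say whether the library sets were sequenced apart.

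**Figure D1:**
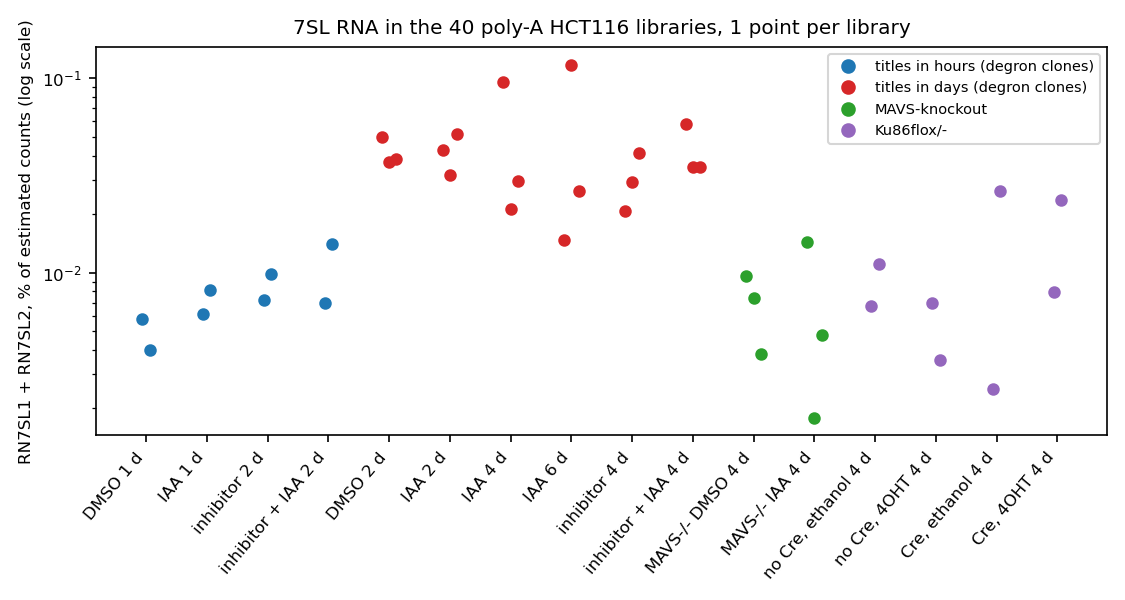
Share of estimated counts on RN7SL1 and RN7SL2 (percent, log axis) in each of the 40 HCT116 libraries, 1 point per library, by group and coloured by library set. The 18 day-titled degron libraries sit between 0.0146 and 0.118%, above all 8 hour-titled libraries, and the spread within the 4-day and 6-day IAA groups exceeds the difference between group means.

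With the count filter, no change of 7SL RNA with IAA, inhibitor plus IAA or 4OHT passed the test, and the 95% intervals were wide. Without the filter the changes were of like size but their SEs several times smaller, and some passed. These were RN7SL2 at 6 days of IAA (0.39 ± 0.13, edgeR adjusted p = 0.0186), RN7SL1 with inhibitor plus IAA at 4 days (0.42 ± 0.13, 0.0376), and both copies with 4OHT without Cre (-0.74 ± 0.09 and -0.86 ± 0.08, adjusted p = 1.53e-13 and 1.79e-22) and in the Cre difference (0.90 ± 0.12 and 0.95 ± 0.11, adjusted p = 1.30e-12 and 1.99e-16). These SEs do not reflect the spread between libraries: RN7SL1 was at 10.5 and 111 CPM in ethanol with Cre. The p-values without the filter therefore do not measure that spread. With the filter, all RN7SL rows added up changed by -0.74 ± 0.71 without Cre and by 0.91 ± 0.95 in the Cre difference. RN7SL1 was at 82.4 to 173 CPM with the inhibitor for 4 days and at 135 to 238 CPM with IAA added, with overlap. Without Cre, RN7SL2 was at 39.6 to 68.4 CPM in ethanol and at 20.1 to 38.6 CPM in 4OHT, without overlap. Libraries of other groups are given next, and several of these groups overlap. RN7SL1 was at 201, 149 and 151 CPM in clones 1, 7 and 9 after 2 days of DMSO. It was at 160, 117 and 202 CPM after 2 days of IAA, at 373, 83.5 and 118 CPM after 4 days and at 62.0, 433 and 102 CPM after 6 days. The groups overlap at every time, and the highest library is clone 1 at 4 days but clone 7 at 6 days. RN7SL2, at 283, 218 and 230 CPM in DMSO, was at 577, 135 and 182 CPM after 4 days and at 86.3, 696 and 159 CPM after 6 days, with the same high libraries. The log2 fold change of RN7SL1 was 0.20 ± 0.57 (SE) at 4 days (95% interval -0.97 to 1.38) and 0.25 ± 0.57 at 6 days (-0.93 to 1.43), and that of RN7SL2 was 0.29 ± 0.61 and 0.36 ± 0.61. With all RN7SL rows added up the changes were 0.24 ± 0.58 and 0.29 ± 0.58 on the log2 scale. The sign was not stable: over all alternatives the change of RN7SL1 ran from -0.71 to 0.56 at 4 days and from -1.04 to 0.66 at 6 days.

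In MAVS-/- clones 1, 13 and 15 RN7SL1 was at 24.2, 19.2 and 9.86 CPM with DMSO and at 39.9, 6.50 and 11.8 CPM with IAA, so it was higher in 2 clones and lower in 1. The log2 change was 0.14 ± 0.62 for RN7SL1 and -0.13 ± 0.63 for RN7SL2, and the difference from the response of MAVS-intact clones had an interval of -1.81 to 1.68 for RN7SL1. Time is part of this difference too, since the MAVS-intact response is taken against 2 days of DMSO. In Ku86Flox/-:CreERT2 cells the libraries of 1 group were farther apart than the groups: RN7SL1 was at 10.5 and 111 CPM in ethanol and at 32.7 and 107 CPM in 4OHT. Without Cre it was at 29.6 and 45.2 CPM in ethanol and at 29.7 and 14.7 CPM in 4OHT. Leaving out the second ethanol library of the Cre cells moved the log2 change of RN7SL1 with 4OHT from 0.20 to 2.71 (adjusted p = 0.00443, edgeR), and that of RN7SL2 from 0.13 to 2.60 (0.00328), so that 1 library decides both values. That fit has a single ethanol library with Cre, so its spread comes only from the remaining groups.

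With the count filter, the only called difference of 7SL RNA came from the inhibitor alone at 2 days against DMSO at 2 days, where RN7SL1 was at 27.2 and 38.1 CPM and lower by a log2 change of -2.35 ± 0.72 (edgeR adjusted p = 0.0121), and RN7SL2 by -2.02 ± 0.75 (adjusted p = 0.0365). In this comparison 34.4% of all genes passed the test. It sets hour-titled libraries against day-titled ones. Against the hour-titled 1-day DMSO libraries, at 22.9 and 17.99 CPM for RN7SL1, the sign turned: the log2 changes were 0.68 and 0.85 (adjusted p = 0.797 and 0.721), with 3 of 8 members called in the first comparison and 0 in the second, in which 3.63% of all genes passed. Library set and inhibitor cannot be told apart in the first of these comparisons, and time and inhibitor cannot in the second. The 4-day inhibitor libraries, titled in days, gave -0.37 ± 0.58 for RN7SL1 against DMSO at 2 days, so time and inhibitor cannot be told apart there either.

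The division between the copies was steadier than their level. The ratio of RN7SL2 to RN7SL1 in deposited TPM (a level scaled to transcript length and library size) was 1.31 to 1.65 in day-titled libraries, 1.39 to 1.94 in hour-titled ones and 1.19 to 1.49 in Ku86Flox/- libraries. In the MAVS-/- libraries it was 1.61 to 2.79 with a median of 2.66, above every other set's median. Across the 12 degron groups the mean log2 levels of RN7SL1 and RN7SL2 had a Pearson r of 0.992, a description of groups that share libraries and clones. Since reads of the copies can hardly be separated, this r also reflects how the estimation divided them. Of the 680 RN7SL rows in the HCT116 table, most of them pseudogenes, 316 had any count and 5 passed the count filter in the degron libraries. RN7SL1 and RN7SL2 held 76.6 to 98.0% of all RN7SL counts in each library. The next rows were RN7SL3 with a mean of 7.42 CPM, RN7SL832P with 0.634 CPM and RN7SL138P with 0.253 CPM.

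The protein mRNAs of the Alu domain, SRP9 and SRP14, were the most abundant of the 6 in every group. In deposited TPM, SRP9 was at 383 and SRP14 at 426 on average after 2 days of DMSO, against 81.1 to 191 for the other 4 subunits. SRP9 and SRP14 form a dimer, and their mean log2 CPM ran together over the 12 degron groups (Pearson r 0.945). Neither passed the test in any contrast of IAA in the main edgeR fit. SRP14 was at 222, 220 and 230 CPM in clones 1, 7 and 9 after 2 days of DMSO and at 202, 148 and 200 CPM after 6 days of IAA, so the groups did not overlap. Its log2 change was -0.29 ± 0.12 with an edgeR adjusted p of 0.0566. SRP9 was at 196, 184 and 189 CPM in DMSO and at 171, 123 and 170 CPM after 6 days, also without overlap, with a change of -0.29 ± 0.14 (adjusted p = 0.11). At 4 days the changes were -0.25 ± 0.14 for SRP9 and -0.22 ± 0.12 for SRP14. With limma on deposited TPM the fall of SRP9 at 4 days passed (-0.48 ± 0.16, adjusted p = 0.0238). The libraries with the least SRP9 and SRP14 of their groups, clone 1 at 4 days (117 and 150 CPM) and clone 7 at 6 days (123 and 148 CPM), are those with the most 7SL RNA. They also had the least SRP19. Without clone 1 or clone 9 at 6 days, and with RLE factors or DESeq2, the fall of SRP14 at 6 days passed the test (adjusted p = 0.0334 with DESeq2).

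SRP19 binds the S domain of 7SL RNA early and lets SRP54 join. In the main edgeR fit SRP19 was the only member called with IAA against DMSO in the degron clones. In clones 1, 7 and 9 it was at 30.7, 29.6 and 34.9 CPM after 2 days of DMSO (31.7 ± 2.78, SD, n = 3), and at 35.3, 32.8 and 37.0 CPM after 2 days of IAA. After 4 days it was at 36.8, 50.8 and 48.9 CPM (45.5 ± 7.60), and after 6 days at 76.9, 56.3 and 75.4 CPM (69.6 ± 11.5). The 2-day groups overlap, while every 4-day and 6-day library lies above every DMSO library. The log2 fold change was 0.14 ± 0.13 at 2 days (adjusted p = 0.511), 0.52 ± 0.13 at 4 days (0.00207) and 1.13 ± 0.13 at 6 days (8.27e-08), or 2.20-fold at 6 days. From 4 to 6 days SRP19 rose by 0.61 ± 0.12 (adjusted p = 0.00244), and from 2 to 4 days the change was 0.38 ± 0.12 (0.0607). These values are from edgeR with Benjamini-Hochberg adjustment. SRP19 was 1 of 8 members called at 4 days, at 6 days and from 4 to 6 days, where 32.8%, 35.2% and 12.5% of all genes passed. At 2 days 0 of 8 members were called beside 19.1% of all genes, with 0 at an unadjusted p under 0.05, and from 2 to 4 days 0 of 8 beside 8.17%, with 4 at an unadjusted p under 0.05 and 1 called by DESeq2. When the fit held only the 2 groups compared, the call at 4 days was lost (0.50 ± 0.18, adjusted p = 0.0558), as was that from 4 to 6 days (0.60 ± 0.20, adjusted p = 0.29), while that at 6 days held.

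**Figure D2:**
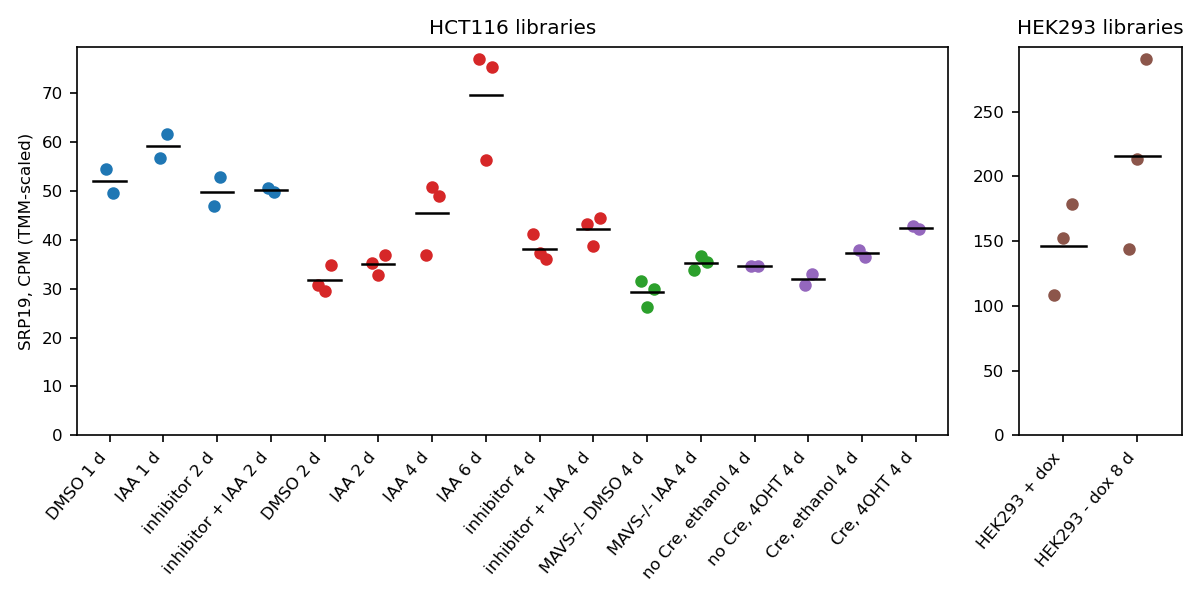
SRP19 level (CPM) in each library by group, with HCT116 left and HEK293 right on separate linear axes. Points are libraries, coloured by library set, and horizontal lines are group means. The 3 libraries at 6 days of IAA lie at 56.3 to 76.9 CPM, above the 2-day DMSO libraries at 29.6 to 34.9 CPM, and the hour-titled libraries lie at 46.9 to 61.7 CPM whatever their treatment.

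At 1 day of IAA SRP19 was at 56.6 and 61.7 CPM against 54.4 and 49.6 CPM in DMSO, and its change of 0.18 ± 0.15 did not pass (0 of 8 members called and 0 at an unadjusted p under 0.05, 0.185% of all genes). Both hour-titled controls are higher than all 3 day-titled ones, so its level also differs between the library sets. With the CDK4/6 inhibitor, which holds cells in G1, IAA gave no called change: SRP19 was at 41.1, 37.2 and 36.1 CPM with the inhibitor for 4 days and at 43.2, 38.7 and 44.5 CPM with IAA added, higher in each clone, with a change of 0.14 ± 0.12 (adjusted p = 0.56). At 2 days the change was 0.01 ± 0.15. No member was called in either (0.413% of all genes at 2 days, 11.2% at 4 days), and 1 of 8 reached an unadjusted p under 0.05 at 4 days and 0 at 2 days. The response of SRP19 at 4 days was lower with the inhibitor than without by -0.38 ± 0.18, with an adjusted p of 0.245 and a 95% interval of -0.74 to -0.01. The response without the inhibitor is taken against 2 days of DMSO, so time is part of this difference. In this test of the difference, 4.69% of all genes and 0 of 8 members passed, 1 of them at an unadjusted p under 0.05. The inhibitor alone gave 0.27 ± 0.13 at 4 days (adjusted p = 0.218, 7.69% of all genes, 0 of 8 members, 3 at an unadjusted p under 0.05 and 3 called by limma) and 0.65 ± 0.14 at 2 days (adjusted p = 0.000631), which became -0.06 ± 0.15 against the 1-day DMSO libraries.

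In the MAVS-/- clones 1, 13 and 15 SRP19 was at 31.6, 26.2 and 30.0 CPM with DMSO and at 33.7, 36.7 and 35.5 CPM with IAA, higher in 3 of 3 clones and without overlap. The change of 0.27 ± 0.13 did not pass the adjustment (edgeR adjusted p = 0.224), in a comparison in which 7.88% of all genes and 0 of 8 members passed, 1 of them at an unadjusted p under 0.05. The response differed from that of MAVS-intact clones by -0.25 ± 0.18 (adjusted p = 0.499), with an interval of -0.62 to 0.11. The MAVS-intact response is taken against 2 days of DMSO, so time is part of this difference. No member passed in this test of the difference (0 of 8 at an unadjusted p under 0.05, 4.85% of all genes called).

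In Ku86Flox/-:CreERT2 cells SRP19 was at 38.0 and 36.6 CPM in ethanol and at 42.8 and 42.2 CPM in 4OHT, a rise of 0.19 ± 0.07 (adjusted p = 0.0311). Without Cre it was at 34.6 and 34.7 CPM in ethanol and at 30.8 and 33.0 CPM in 4OHT, a change of -0.12 ± 0.07 (adjusted p = 0.291). The difference between the responses, 0.31 ± 0.10, passed the test (adjusted p = 0.0228), for 1 of 8 members beside 41.2% of all genes. With 4OHT and Cre 54.0% of all genes passed, and the rise with Cre was not called in any fit that left out 1 of the 4 libraries (adjusted p 0.0686 to 0.173) nor by DESeq2 (adjusted p = 0.15).

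In HEK293 SRP19 was at 153, 108 and 179 CPM in clones Sa11, SB and TI with doxycycline and at 214, 144 and 291 CPM 8 days after its withdrawal. The groups overlap, but the level was higher in 3 of 3 clones. The change of 0.56 ± 0.26 did not pass without regard to the clone (adjusted p = 0.148), and with the clone as a block it was 0.53 ± 0.11 and passed (adjusted p = 0.00214). In that blocked fit 2 of 6 members were called, beside 34.8% of all genes, against 1 of 6 and 22.0% without the block.

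The SRP19 row needs care, because its annotated transcripts contain sequence of other genes. SRP19 lies on chromosome 5 at 112861188 to 112898371 on the plus strand (GRCh38, GENCODE v29). It overlaps REEP5 on the other strand and the protein-coding AC008575.1 on the same strand (410 shared windows of 31 bases), and contains the pseudogene ZRSR2P1. Of its 10655 windows of 31 bases, 7851 (73.7%) were found in no other gene, the lowest share of the 6 protein genes. The others ranged from 86.7% for SRP9 to 99.9% for SRP54. SRP19 shared windows with 4617 other genes, among them 1440 windows with ZRSR2P1 and 547 with ZRSR2, a splicing factor gene and parent of that pseudogene. The annotation the authors used is not given in the sources used here and may hold other transcripts. ZRSR2 and REEP5, looked at for this overlap after the values of SRP19 were seen, moved as follows. ZRSR2 did not change at 4 days of IAA (-0.23 ± 0.28, adjusted p = 0.581) and rose at 6 days by 0.85 ± 0.27 (0.0156), from 3.67 to 6.41 CPM in DMSO to 7.40 to 9.65 CPM. It also rose with 4OHT and Cre by 0.43 ± 0.13 (adjusted p = 0.0119) and in HEK293 by 1.09 ± 0.18 (0.00401). REEP5 changed by 0.00 ± 0.12 at 4 days and 0.17 ± 0.12 at 6 days of IAA, and fell by 0.88 ± 0.19 in HEK293 (adjusted p = 0.012). The part of shared sequence in the SRP19 values was not tested.

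SRP54, the GTPase that binds the signal peptide and the receptor, did not pass in any contrast of IAA in the main edgeR fit. From 2 to 4 days it passed with limma on deposited TPM (-0.63 ± 0.13, adjusted p = 0.00200). With only the compared groups it passed at 2 days (0.25 ± 0.08, edgeR adjusted p = 0.0325). It was at 93.4, 90.8 and 98.1 CPM in clones 1, 7 and 9 after 2 days of DMSO and at 118, 113 and 103 CPM after 2 days of IAA, without overlap (0.25 ± 0.13, adjusted p = 0.211). At 6 days the groups overlapped at 133, 89.2 and 102 CPM (0.20 ± 0.13). With 4OHT and Cre it was at 54.4 and 56.9 CPM against 64.7 and 61.6 CPM in ethanol, lower by -0.18 ± 0.07 (adjusted p = 0.0467). Without Cre the change was -0.06 ± 0.07. The difference between these responses was -0.12 ± 0.10 (adjusted p = 0.366), so a lower level with Cre and not without it was not shown.

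SRP68 and SRP72 form a dimer that anchors the S domain. With IAA neither was called at any time in the main edgeR fit. Their changes at 6 days were -0.07 ± 0.11 for SRP68 and 0.17 ± 0.11 for SRP72. With only the compared groups SRP72 was lower at 2 days (-0.23 ± 0.07, edgeR adjusted p = 0.0230). The levels of SRP68 in the 2 Ku86Flox/- lines stood apart before treatment: 149 and 146 CPM with Cre and 251 and 257 CPM without Cre, all in ethanol. With 4OHT it fell in both, to 130 and 137 CPM with Cre (-0.15 ± 0.05, adjusted p = 0.025) and to 221 and 219 CPM without Cre (-0.21 ± 0.05, adjusted p = 0.0125). The test of the difference gave 0.06 ± 0.07, with an interval of -0.09 to 0.21. SRP9 also fell with 4OHT and Cre (-0.14 ± 0.05, adjusted p = 0.0314) and SRP14 without Cre (-0.21 ± 0.06, adjusted p = 0.026). Of 8 members 1 rose and 3 fell with 4OHT and Cre, near the 54.0% of all genes that passed, and 0 rose and 2 fell without Cre, where 13.7% of all genes passed. None of these 6 calls held in every fit that left out 1 library.

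HEK293 gave the only rise of SRP68. It was at 64.9, 65.9 and 63.2 CPM in clones Sa11, SB and TI with doxycycline and at 86.2, 76.6 and 98.0 CPM without it, higher in 3 of 3 clones and without overlap. The change was 0.43 ± 0.12 (adjusted p = 0.0332) and with the clone as a block 0.42 ± 0.11 (adjusted p = 0.0127). Leaving out any of 5 of the 6 libraries ended the unblocked call (adjusted p 0.0738 to 0.127). SRP72 changed by 0.18 ± 0.16, SRP54 by -0.06 ± 0.17, SRP9 by -0.18 ± 0.15 and SRP14 by -0.16 ± 0.15, with none called.

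**Figure D3:**
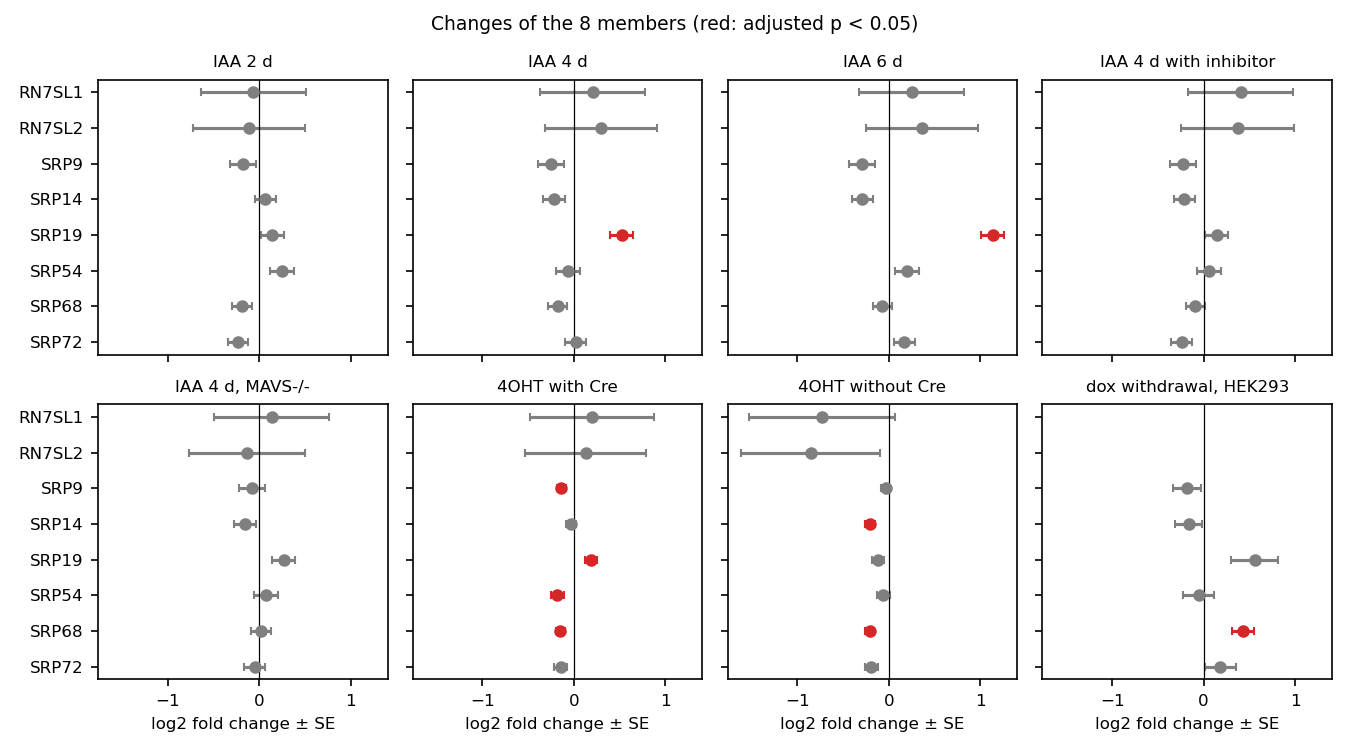
Log2 fold change ± SE of each member in 8 comparisons, with calls at an adjusted p under 0.05 in red. SRP19 is the only member called with IAA, at 4 and 6 days, and the wide bars of RN7SL1 and RN7SL2 show the spread between libraries. RN7SL1 and RN7SL2 were not analysed in HEK293.

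Set side by side as levels per length, the 6 subunit mRNAs were far from equal. In deposited TPM the highest was 3.49 to 6.53 times the lowest in HCT116 groups and 24.2 times in HEK293 with doxycycline. SRP19 was the lowest of the 6 after 2 days of DMSO (81.1 TPM) and after 6 days of IAA (193 TPM) stood next behind SRP14 (380) and SRP9 (297). It held that place in HEK293 too, at 342 TPM with doxycycline and 495 without. The 2 tables come from different library types and were made separately, so levels of the subunits are not compared between the lines.

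**Figure D4:**
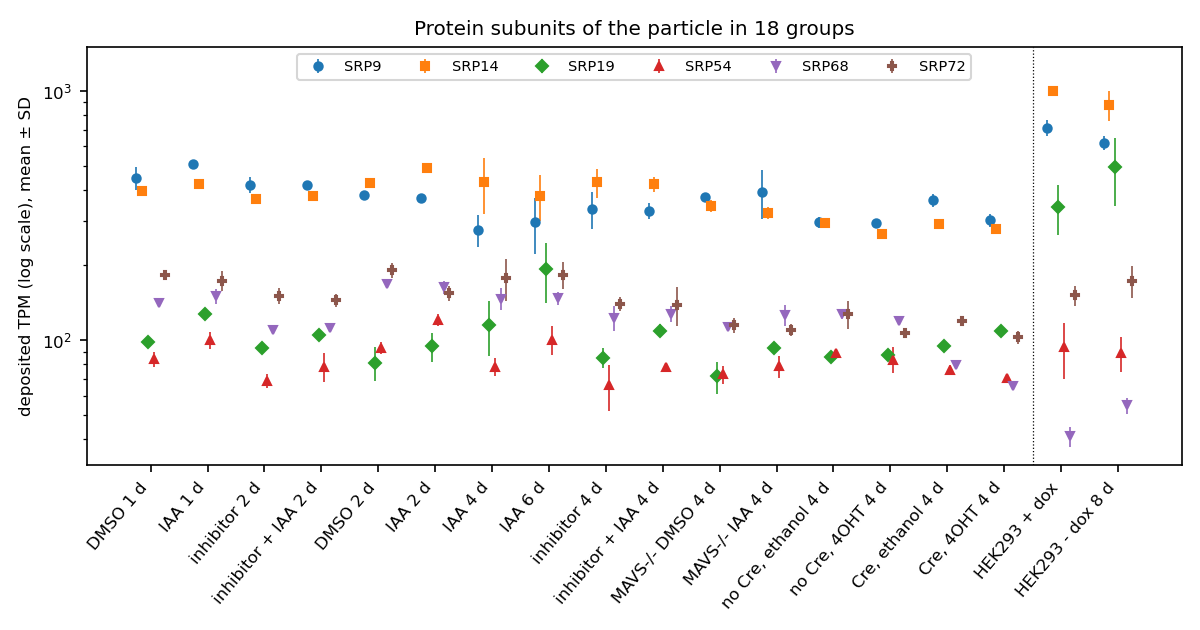
Deposited TPM (log axis, mean ± SD over 2 or 3 libraries) of the 6 protein subunits in all 18 groups, with HEK293 right of the dotted line. SRP9 and SRP14 are highest in each group, and SRP19 moves from 81.1 TPM at 2 days of DMSO to 193 TPM at 6 days of IAA.

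Over the 12 degron groups, ordered by mean CPM, SRP19 was highest at 6 days of IAA and lowest in MAVS-/- DMSO (29.3 CPM), and 7 of its 11 neighbouring steps were smaller than the larger SD of the pair. For RN7SL1 this held for 9 of 11 steps. Its means ran from 199 CPM at 6 days of IAA to 17.7 CPM in MAVS-/- DMSO. The lowest mean of a day-titled group with intact MAVS was 129 CPM and the highest of the other groups 38.4 CPM. SRP9, SRP14, SRP54, SRP68 and SRP72 varied by 1.57 to 1.88 times between their highest and lowest group. Among 10235 genes of at least 10 CPM, those whose group means ran most like SRP19 were CDK7 (Pearson r 0.942), RBM34 (0.937) and VPS72 (0.934). For SRP9 they were NMD3, PGRMC2 and SSB, for SRP14 MRPL35, UGDH and SRP9, and for RN7SL1 they were RHOT1 (0.996), RN7SL2 and NOTCH2NLC. These are descriptions over 12 groups that share library sets.

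The receptor of the particle consists of SRPRA, which binds SRP54, and SRPRB, its membrane anchor. SRPRA was at 106, 117 and 120 CPM in clones 1, 7 and 9 after 2 days of DMSO and at 149, 145 and 149 CPM after 6 days of IAA, without overlap, a rise of 0.37 ± 0.09 (edgeR adjusted p = 0.00174). At 4 days the change was 0.18 ± 0.09 (adjusted p = 0.113). In MAVS-/- clones SRPRA rose by 0.28 ± 0.09 (adjusted p = 0.0468), from 111 to 119 CPM to 130 to 152 CPM. With 4OHT it fell with Cre (-0.27 ± 0.05, adjusted p = 0.000518) and without Cre (-0.18 ± 0.05, 0.0272). SRPRB was not called with IAA (0.36 ± 0.19 at 6 days, adjusted p = 0.143) and rose with 4OHT and Cre by 0.54 ± 0.06 (6.95e-06), from 47.8 to 48.8 CPM to 69.2 to 71.3 CPM. Without Cre it changed by -0.08 ± 0.06, and the test of the difference gave 0.62 ± 0.09 (adjusted p = 8.83e-05).

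Downstream of the receptor, some genes of the channel and of the enzymes beside it were called higher with IAA. Over all genes 9.12% rose at 2 days, 17.9% at 4 days and 17.8% at 6 days. Of 12 genes of the Sec61 translocon and its helpers, 3 rose at 2 days of IAA, 4 at 4 days and 7 at 6 days, and 0 fell. The list's median log2 change at 6 days was 0.50, beside 0.00 over all genes. SEC61A1, the channel's pore subunit, rose by 1.15 ± 0.10 (adjusted p = 1.37e-09) at 6 days, TRAM1 by 0.95 ± 0.15, TRAM2 by 0.57 ± 0.10 and the translocon-associated SSR1 by 0.51 ± 0.09. Of 12 subunits of the oligosaccharyltransferase, which adds N-glycans to entering chains, 3, 4 and 7 rose and 0 fell at 2, 4 and 6 days. KRTCAP2 rose by 0.94 ± 0.15, RPN2 by 0.51 ± 0.09, OST4 by 0.48 ± 0.12 and RPN1 by 0.43 ± 0.11 at 6 days. Of 5 signal peptidase genes, SEC11C (1.09 ± 0.18) and SPCS1 (0.54 ± 0.12) rose and SEC11A, the other catalytic subunit, fell by 0.51 ± 0.09 at 6 days.

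Other routes into the ER membrane were read from further lists. Over all genes 14.9% fell at 4 days of IAA and 17.5% at 6 days. Of 7 genes of tail-anchored protein targeting, which works without the particle, 0 rose and 3 fell at 4 and at 6 days of IAA, at 6 days UBL4A (-0.50 ± 0.13 at 6 days), BAG6 (-0.35 ± 0.11) and SGTA (-0.29 ± 0.11). Of 10 genes of the ER membrane protein complex, an insertase, EMC3 (1.37 ± 0.21) and EMC7 (0.90 ± 0.12) rose at 6 days and 0 fell, a share near that over all genes. Both also rose in MAVS-/- clones, by 1.07 ± 0.20 and 0.74 ± 0.12, and with IAA under the inhibitor, by 0.74 ± 0.20 and 0.56 ± 0.12. SEC61A1 rose in these comparisons by 0.48 ± 0.10 and 0.37 ± 0.10. With 4OHT and Cre, where 26.4% of all genes rose and 27.5% fell, 7 of 12 Sec61 genes rose and 2 fell. Of 12 oligosaccharyltransferase genes 2 rose (OST4 and KRTCAP2) and 5 fell, STT3A by 0.27 ± 0.05 among them. In the difference from cells without Cre, 18.8% of all genes were called higher and 22.4% lower. There SEC61A1, SEC61B, SEC61G, SSR2, SSR3, SSR4 and TRAM1 were higher and TRAM2 lower. Of the oligosaccharyltransferase, OST4, DAD1, OSTC, DDOST and KRTCAP2 were higher and STT3A, STT3B, RPN1 and TUSC3 lower. RPN2, lower with Cre, was not called in the difference (-0.04 ± 0.07). In HEK293, where 11.1% of all genes rose and 10.9% fell, 0 of 12 genes of the Sec61 list rose and 2 fell (SSR1 and TRAM2), which is near that share, and 4 of 12 oligosaccharyltransferase genes fell, led by TUSC3 (-0.85 ± 0.11) and MAGT1 (-0.84 ± 0.11).

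**Figure D5:**
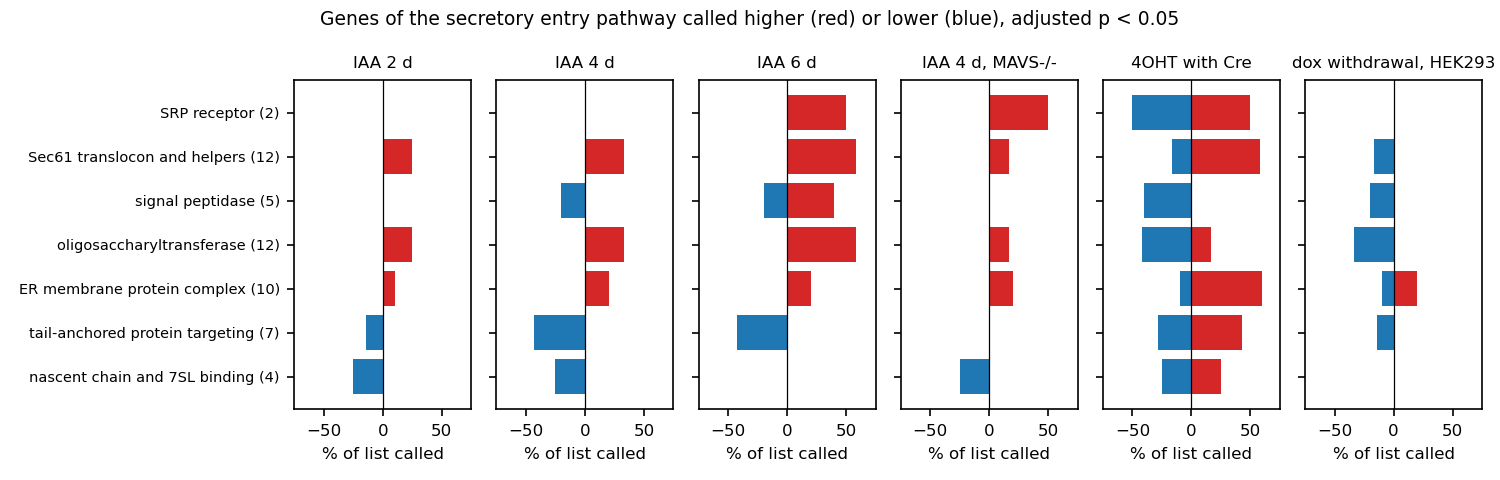
Percent of each list called higher (red, to the right) or lower (blue, to the left) at an adjusted p under 0.05 in 6 comparisons, with the number of genes per list in brackets. The Sec61 and oligosaccharyltransferase lists reach 7 of 12 genes higher and 0 lower at 6 days of IAA, and in HEK293 both have genes lower and 0 higher.

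BCYRN1, the BC200 RNA, was lower at 2, 4 and 6 days of IAA and with 4OHT. It is a polymerase III transcript with an Alu-like end that SRP9/SRP14 bind, and a single exon on chromosome 2 at 47335315 to 47335514 (GRCh38, GENCODE v29), with the lincRNA AC106869.1 on the other strand. It ranged from 35.1 to 48.6 CPM after 2 days of DMSO and fell to 12.8 to 15.2 CPM after 2 days of IAA, 6.93 to 24.0 CPM after 4 days and 12.04 to 17.2 CPM after 6 days, without overlap. The log2 changes were -1.56 ± 0.39 (adjusted p = 0.00513), -1.61 ± 0.39 (0.00203) and -1.55 ± 0.38 (0.00236). It fell with IAA under the inhibitor at 4 days by 1.49 ± 0.40 (adjusted p = 0.014). With 4OHT it fell by 1.31 ± 0.12 with Cre and by 0.50 ± 0.09 without Cre, and the difference of -0.82 ± 0.15 passed (adjusted p = 0.00055). In MAVS-/- clones the change was -0.77 ± 0.39 (adjusted p = 0.275). BCYRN1 was the only called gene among the 6 tested of 14 other polymerase III RNAs at 2, 4 and 6 days of IAA. Over all genes 19.1%, 32.8% and 35.2% passed at these times, so 1 of 6 is not above the general share. The BCYRN1 row needs care too. Counted as for SRP19, 128 of the 170 sequence windows of BCYRN1 (75.3%) were found in no other gene. The rest were shared with 260 other genes. The part of shared sequence in the BCYRN1 values was not tested. SSB, the La protein that binds new polymerase III transcripts, fell at 2 days by 0.45 ± 0.16 (adjusted p = 0.0482) and at 4 days by 0.42 ± 0.16 (0.0439), and changed by -0.30 ± 0.16 at 6 days (0.139).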

How the data were processed

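RNA was measured in 40 HCT116 and 6 HEK293 libraries. The deposited tables give estimated counts and TPM per gene. The submitters' processing notes name Salmon 1.10.2, kallisto 0.50.0, DESeq2 and GRCh38, without their roles. For the annotation and the strand setting, the sources used here give no statement. All per-sample columns matched a sample (0 without one). The 8 members and the gene lists were chosen with earlier results of these data known.

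Estimated counts were rounded, filtered with filterByExpr and scaled with TMM factors. They were tested with edgeR 4.0.16 (quasi-likelihood, Benjamini-Hochberg, threshold 0.05) in R 4.3.3, in 3 fits: 32 degron libraries (18877 genes), 8 Ku86Flox/- libraries (16726) and 6 HEK293 libraries (15549). SEs were taken from the log2 change and its F value. Alternatives used RLE factors, no filter, DESeq2 1.42.0, limma 3.58.1 on log2(deposited TPM + 1) for genes of at least 1 TPM in 2 libraries, only the compared groups, a replicate block, each library left out, RN7SL rows summed, and RNAs without a poly-A tail left out. The 1-day DMSO control for the inhibitor was added after seeing the data.

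Named were the members, SRPRA and SRPRB, up to 4 called genes of smallest p per list, the 3 top further RN7SL rows, and the 3 genes most like each member. A few further called genes, CD68, ZRSR2, REEP5, RPS29 and ZACN were named after their values were seen. Clone numbers pair libraries by label in the degron, MAVS-/- and HEK293 groups. Deviations of same-numbered libraries correlated at 0.344 to 0.529 in HEK293, 0.120 to 0.396 in MAVS-/- clones and 0.0260 to 0.0988 at 4 days of IAA. Ku86Flox/- libraries share only a number. No 2 replicates agreed within counting noise (lowest chi-square per degree of freedom 1.98). The 7SL sequences are not reported here. Positions, the alignment and 31-base windows come from GENCODE v29, which may differ from the authors' annotation.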

Additional observations from a re-analysis of the deposited data

Results flagged for a closer look

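The response of SRP19 to 4OHT differed between Ku86Flox/- cells with and without Cre by 0.31 on the log2 scale (edgeR adjusted p = 0.0228), a test of the difference itself over 2 libraries per group. SRP19 was higher in both 4OHT libraries with Cre and lower in both without Cre. The call was lost with no count filter (adjusted p = 0.0898), with DESeq2 (0.107), with limma (0.207) and in 4 of 8 fits that left out 1 library.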

How the results depend on the processing

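Of 169 alternatives for the 14 called member changes, 111 kept direction and call, 55 kept the direction and lost the call, and 3 reversed. The reversals came with the 1-day DMSO control for the inhibitor alone at 2 days, giving 0.68 for RN7SL1, 0.85 for RN7SL2 and -0.060 for SRP19, with 0 members called in place of 3. Of 210 alternatives for the number of members called, 164 stayed within 1.5 times and 46 did not. With only the compared groups the number was 2 at 2 days of IAA, 0 at 4 days, 0 from 4 to 6 days, 6 for the inhibitor alone at 2 days and 0 for 4OHT without Cre. With limma it was 2 at 4 days of IAA, 1 from 2 to 4 days, 3 for the inhibitor alone at 4 days, and 0 for 4OHT without Cre, HEK293 and the Cre difference. With DESeq2 it was 2 at 6 days, 1 from 2 to 4 days, and 0 for 4OHT with Cre and the Cre difference. With RLE factors it was 2 at 6 days. With no count filter it was 2 at 6 days, 1 for IAA with inhibitor at 4 days, 5 for 4OHT without Cre, 0 in HEK293 and 2 for the Cre difference. The calls of 7SL RNA among these rest on SEs that do not reflect the spread between libraries. Leaving out 1 library gave 1 to 2 at 4 days and at 6 days of IAA, 0 to 2 from 2 to 4 days, 0 to 3 for the inhibitor alone at 2 days, 0 to 2 for 4OHT with Cre, for 4OHT without Cre, for HEK293 and for the Cre difference, and 0 to 1 for the inhibitor difference. The cause was not tested. With the clone pairing as a replicate block the number in HEK293 was 2 in place of 1, and the block moved no other number of members called by over 1.5 times. The wide spread of 7SL RNA between libraries limits what could be detected.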
